A study of Mus musculus with 12 samples.

Results

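The 36 genes described here carry or control calcium in heart muscle cells, and were measured in 12 mouse heart samples, 1 array each. They were chosen by name, as every non-control probe whose gene name in the array files was on a list of calcium handling and calcium channel genes. All 36 were found, on 99 of the 56605 non-control probes, beside 36981 genes with a probe in all. Of the 36, 35 passed the filter on dim probes described below, and Atp2b4, a plasma membrane calcium pump, did not.

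The 4 groups hold 3 samples each. Wild-type mice gave the WT hearts and, after a myocardial infarction, the WT+MI hearts. Mice carrying a transgene for CCRR, a long non-coding RNA, gave the TG-CCRR hearts and, after infarction, the TG-CCRR+MI hearts. The strain is labelled C57/BL6 for WT and WT+MI only. Strain and transgene therefore cannot be told apart between the genotypes. The group labels name no sham operation, so that surgery and infarction cannot be told apart within a genotype. The sources used here do not state the mice's age, the promoter that drives the transgene, how long after infarction or from which part of the heart tissue was taken, or whether each sample was a separate animal. The p-values therefore measure no more than how these samples spread, and that spread may be technical. No probe name in the files contains CCRR, so the level of the transgene was not analysed here.

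In a working heart cell, calcium that enters through voltage-gated channels of the surface membrane opens ryanodine receptors in the sarcoplasmic reticulum, the internal calcium store, and the calcium released there starts contraction. The cell relaxes as the SERCA pump, restrained by phospholamban, returns calcium to the store and the sodium-calcium exchanger carries the rest out. Buffer proteins hold calcium inside the store, junction proteins hold store and surface membrane together, and calmodulin-dependent kinases and calcineurin turn calcium signals into changes of phosphorylation.

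A level is given here as log2 of the background-subtracted Cy3 signal minus the array's 75th percentile, so that 0 is the signal below which 75% of the probes of an array lie and a difference of 1 is a doubling. Levels of different genes come from different probes and are not compared with each other. Where a gene had several probes, the one with the highest mean level represented it. The filter kept a gene if, in 1 group or more, each of the 3 arrays marked this probe as well above background, and 19761 genes were kept and tested. Differences are given ± the standard error of the limma fit, with p-values adjusted by Benjamini-Hochberg over all 19761 genes and a threshold of 0.05. Except where an SD is named, each difference is between means of 3 arrays.

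The 75th percentile of signal lay between 138 and 260 units on the 12 arrays, between 47.0% and 55.2% of probes were well above background, and no spot of a non-control probe was saturated. Of the 35 tested genes, 34 were well above background on all 12 arrays. Cacna1d was so on 10 of them, on 2 of 3 in WT and in TG-CCRR. The arrays lay on 2 slides. Slide 1 held WT, WT+MI and TG-CCRR 1 and 2, and slide 2 held TG-CCRR 3 and the 3 TG-CCRR+MI arrays. TG-CCRR+MI and WT+MI share no slide, so that slide and group cannot be told apart in that comparison. Of 12 cardiomyocyte markers, all 12 were well above background on every array, with a summed linear level between 3638 and 6104. The summed linear level of 5 atrial markers lay between 54.5 and 55.9 in WT, between 235 and 677 in WT+MI, between 477 and 1495 in TG-CCRR and between 75.03 and 322 in TG-CCRR+MI. TG-CCRR 1 also stood apart in adipocyte markers, with a summed level of 62.1 against 0.48 to 2.82 on the other arrays. TG-CCRR+MI 3 had the lowest Spearman correlation of its signals with the authors' values of its closest other array, 0.980 against 0.986 to 0.994. Its summed level of macrophage markers was 62.9, against 111 and 135 on the other arrays of its group.

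The probes are 60 bases long, with mm9 positions in the files. The 7 printed here read genes described below, called or not, and are open in at least 1 reading frame. Those of Ryr2 and Itpr1 cover more genome than their own length, 453 and 4237 bases, so that they match a spliced transcript across an intron. They lie at chr13:11792652-11793104 on the minus strand and chr6:108187033-108191269 on the plus strand. No part of these sequences is marked.
Ryr2: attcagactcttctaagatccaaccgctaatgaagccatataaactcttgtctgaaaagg
Itpr1: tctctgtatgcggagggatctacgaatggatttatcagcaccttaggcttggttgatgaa
The other printed probes lie within a single block of genome, all on the minus strand, at chr4:9563054-9563113 for Asph, chr5:122910660-122910719 for Atp2a2, chr3:90315191-90315250 for S100a1, chr17:81844837-81844896 for Slc8a1 and chr6:118544079-118544138 for Cacna1c.
Asph: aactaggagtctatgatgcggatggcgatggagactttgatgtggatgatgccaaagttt
Atp2a2: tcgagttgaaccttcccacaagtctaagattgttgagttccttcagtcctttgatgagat
S100a1: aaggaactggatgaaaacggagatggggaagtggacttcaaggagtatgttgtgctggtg
Slc8a1: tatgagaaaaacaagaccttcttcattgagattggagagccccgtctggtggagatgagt
Cacna1c: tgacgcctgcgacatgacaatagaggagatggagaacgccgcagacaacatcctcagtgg
The Ryr2, S100a1 and Slc8a1 probes are those that represent their genes in the values below. The other 4 are further probes of their genes, whose differences are set beside those of the representing probes.

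RefSeq promoters, the 250 bases before and the 50 after a gene's start on the GRCm38.p6 build, were in the reference table for 25 of the 36 genes, in 32 windows. They were searched on both strands for 5 short motifs. MEF2, with the letters TAAAAATA, was found in 2 of the 32 windows against 2.72% of all 32851. The TATA box letters TATAAA were in 2 windows against 13.6% of all. The letters AGATAA, searched for the GATA factors, were in 3 against 11.2%, the NFAT letters GGAAA in 18 against 61.3%, and the E-box letters CANNTG in 24 against 72.3%. A match is a description of letters and not a binding site. The 2 windows with the MEF2 letters belong to Casq2 and Slc8a1, which encode the cardiac calcium buffer and the sodium-calcium exchanger. Their capitals mark the MEF2 letters and, in Slc8a1, a GATA match. The Casq2 window is chr3:102086165-102086464 on the plus strand, with its match starting 68 bases before the gene's start, and the Slc8a1 window is chr17:81738338-81738637 on the minus strand, with matches starting 182 and 68 bases before the start.
Casq2: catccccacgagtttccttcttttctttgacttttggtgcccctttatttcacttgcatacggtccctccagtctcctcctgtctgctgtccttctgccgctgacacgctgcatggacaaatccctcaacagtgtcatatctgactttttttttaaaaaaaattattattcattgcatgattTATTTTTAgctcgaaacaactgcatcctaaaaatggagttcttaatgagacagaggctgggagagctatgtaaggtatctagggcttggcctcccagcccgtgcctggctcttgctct
Slc8a1: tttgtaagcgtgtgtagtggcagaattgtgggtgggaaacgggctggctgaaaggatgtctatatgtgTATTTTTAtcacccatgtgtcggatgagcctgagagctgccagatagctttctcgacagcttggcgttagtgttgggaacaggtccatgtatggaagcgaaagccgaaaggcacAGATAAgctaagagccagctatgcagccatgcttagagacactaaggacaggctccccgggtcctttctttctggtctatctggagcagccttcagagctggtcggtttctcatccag
The Pln and Rcan1 windows are shown because Pln had the largest fall of the reuptake genes after infarction in WT and Rcan1 rose after infarction in both genotypes. Pln, at chr10:53337436-53337735 on the plus strand, holds a TATA box match 219 bases and a GATA match 183 bases before its start, in capitals. Of the 2 Rcan1 windows, the one at chr16:92400029-92400328 on the minus strand holds 3 NFAT matches, in capitals, starting 227, 193 and 163 bases before the start, and 9.42% of all windows hold at least 3.
Pln: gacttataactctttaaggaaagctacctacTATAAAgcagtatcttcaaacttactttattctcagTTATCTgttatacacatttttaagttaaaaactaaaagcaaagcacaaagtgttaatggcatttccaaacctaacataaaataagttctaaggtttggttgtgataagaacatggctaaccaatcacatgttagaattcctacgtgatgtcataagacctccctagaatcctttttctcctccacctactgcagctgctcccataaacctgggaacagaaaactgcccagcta
Rcan1: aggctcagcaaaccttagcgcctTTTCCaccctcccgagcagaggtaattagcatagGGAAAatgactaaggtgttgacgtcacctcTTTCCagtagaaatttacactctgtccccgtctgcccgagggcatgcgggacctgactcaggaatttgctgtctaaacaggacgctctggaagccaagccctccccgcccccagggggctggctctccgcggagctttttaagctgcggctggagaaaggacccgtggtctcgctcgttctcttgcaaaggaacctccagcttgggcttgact

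Most of these genes differed between WT+MI and WT, mainly with lower levels in WT+MI. Of the 35 tested, 17 fell and 4 rose, which is 60% against 47.9% of all genes tested. The share that fell was 48.6% of the members against 29.3% of all genes, and the share that rose 11.4% against 18.6%. The median difference was -0.41 over the 35 and -0.14 over all genes. WT and WT+MI did not overlap for 24 of the 35, and for 63.7% of all genes. The largest falls were in Cacna1g, a T-type channel, Camk2a, a calmodulin-dependent kinase, and Pln, phospholamban. The rises were in Cacna1d, Rcan1, Bin1 and Sri.

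**Figure D1:**
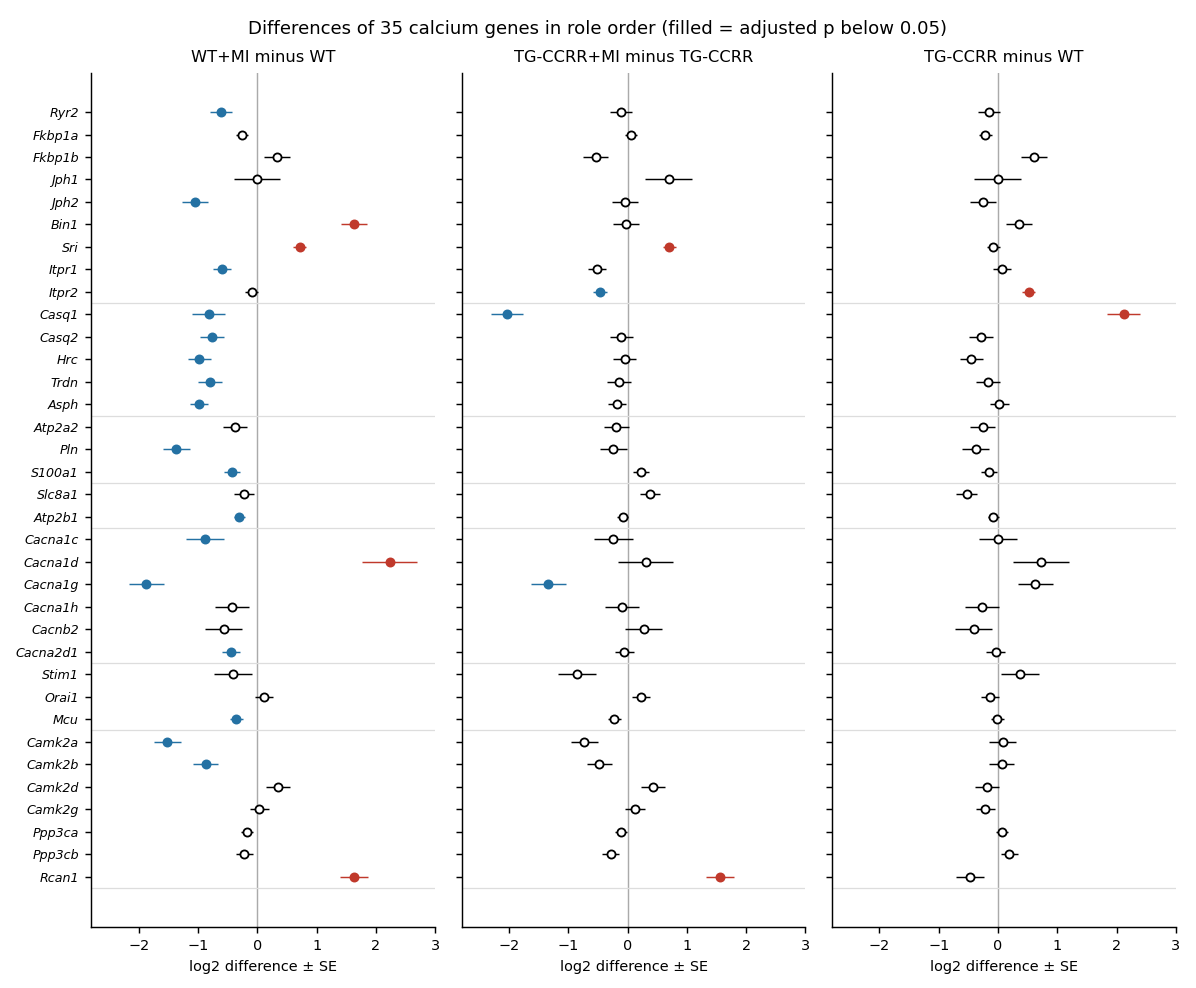
Difference in log2 level (horizontal axis) of the 35 tested calcium genes, in the order of their roles with grey lines between roles, for WT+MI minus WT, TG-CCRR+MI minus TG-CCRR and TG-CCRR minus WT; points are differences of means of 3 arrays with their standard errors, and filled points passed an adjusted p of 0.05. WT+MI minus WT holds 21 filled points, 17 of them below 0, against 5 in the transgenic hearts after infarction and 2 for TG-CCRR minus WT.

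Among the genes of the release channel and its junction, Ryr2, the ryanodine receptor of heart, had levels of 5.40, 5.50 and 5.40 in WT, 4.5, 5.0 and 4.96 in WT+MI, 5.08, 5.51 and 5.25 in TG-CCRR, and 5.21, 4.83 and 5.44 in TG-CCRR+MI. All WT+MI arrays lay below all WT arrays, while the transgenic groups overlapped each other. Ryr2 fell by 0.62 ± 0.18 on the log2 scale in WT+MI (1.53-fold, adjusted p = 0.0189). Without WT+MI 1 the difference was -0.46, with an adjusted p of 0.0735. Jph2, the junctophilin that ties the store to the surface membrane in heart, was at 3.63, 3.45 and 3.40 in WT and at 2.01, 2.74 and 2.58 in WT+MI. In TG-CCRR it was at 2.97, 3.31 and 3.45, and in TG-CCRR+MI at 3.06, 2.95 and 3.60. It fell 2.07-fold in WT+MI (difference -1.05 ± 0.22, adjusted p = 0.00353). The transgenic arrays, infarcted or not, lay between or within the WT and WT+MI ranges.

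Bin1, amphiphysin 2, which shapes the transverse tubules and is also made in many other cells, moved the other way. Its levels were 1.12, 0.98 and 0.64 in WT, 2.70, 2.64 and 2.28 in WT+MI, 1.62, 1.19 and 1.0 in TG-CCRR, and 1.28, 1.55 and 0.88 in TG-CCRR+MI. Each WT+MI array was higher than each of the other 9. Bin1 rose 3.09-fold in WT+MI (difference 1.63 ± 0.22, adjusted p = 0.000397). Sri, sorcin, a calcium-binding protein that acts on the ryanodine receptor, rose from a range of 3.32 to 3.48 in WT to 4.10 to 4.13 in WT+MI (difference 0.71 ± 0.11, adjusted p = 0.000737). Itpr1, an inositol trisphosphate receptor, fell by 0.60 ± 0.15, and its printed probe by 0.58 ± 0.12, while its other 2 tested probes, at -0.31 and -0.34, did not pass. Its relative Itpr2, at -0.09 ± 0.11, and the ryanodine receptor binding proteins Fkbp1a, at -0.26 ± 0.11, and Fkbp1b, at 0.33 ± 0.22, did not pass. Jph1, the junctophilin best known from skeletal muscle, had a difference of -0.01 ± 0.40. On TG-CCRR+MI 3 Jph1 stood at -0.45 against -2.55 to -2.01 on the other 11.

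All 5 genes of the store's lumen and of the proteins that anchor its buffer to the release channel fell in WT+MI. Casq2, calsequestrin 2, the main calcium buffer of the heart's store, was at 7.12, 7.36 and 7.07 in WT, 6.19, 6.81 and 6.26 in WT+MI, 6.81, 6.98 and 6.89 in TG-CCRR, and 6.76, 6.46 and 7.14 in TG-CCRR+MI. WT and WT+MI did not overlap, and the fall was by 0.76 ± 0.20 (1.70-fold, adjusted p = 0.00990). Hrc, the histidine-rich calcium binding protein, fell by 0.98 ± 0.19 and Trdn, triadin, by 0.80 ± 0.20. Asph, whose transcripts encode junctin as well as an aspartyl hydroxylase, fell by 0.99 ± 0.16 with an adjusted p of 0.000811, and its printed probe by 1.57 ± 0.28. The third tested Asph probe had a difference of -0.25 ± 0.15 that did not pass. Casq1, the calsequestrin typical of skeletal muscle, fell by 0.82 ± 0.27, with an adjusted p of 0.0294. Its call held under 16 of 22 alternatives. It was lost without any 1 of WT 1, WT 3, WT+MI 1 and WT+MI 3, with no filter on dim probes, and with normexp background correction, where the difference was -0.44.

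Among the reuptake genes, Pln was at 7.15, 7.17 and 7.12 in WT, 5.21, 6.08 and 6.04 in WT+MI, 6.58, 6.94 and 6.78 in TG-CCRR, and 6.52, 6.22 and 6.83 in TG-CCRR+MI. Every WT+MI array was below all other arrays. Pln fell 2.58-fold in WT+MI (difference -1.37 ± 0.23, adjusted p = 0.00108). S100a1, a calcium sensor that acts on SERCA and the ryanodine receptor, fell by 0.43 ± 0.14, with an adjusted p of 0.0249.

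Atp2a2, the SERCA2 pump itself, was at 7.71, 7.97 and 7.64 in WT and at 7.13, 7.73 and 7.31 in WT+MI. In TG-CCRR it was at 7.32, 7.73 and 7.50, and in TG-CCRR+MI at 7.26, 7.01 and 7.70. WT and WT+MI overlapped, and the difference of -0.38 ± 0.21 did not pass (adjusted p = 0.149). The 3 Atp2a2 probes differed from each other. The probe printed above, which was not the one used, fell by 1.06 ± 0.19 in WT+MI, with an adjusted p of 0.00158 over the 29870 probes that passed the filter, of which 46.2% were called. The remaining probe, at chr5:122906850-122906909, had a difference of -0.24.

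Of the genes that carry calcium out of the cell, Slc8a1, the sodium-calcium exchanger, was at 0.65, 0.75 and 0.62 in WT, 0.12, 0.84 and 0.39 in WT+MI, -0.09, 0.28 and 0.25 in TG-CCRR, and 0.59, 0.43 and 0.55 in TG-CCRR+MI. Its difference of -0.23 ± 0.17 in WT+MI against WT did not pass, and WT lay inside the WT+MI range. In TG-CCRR against WT it was -0.53 ± 0.17, with the 3 TG-CCRR arrays below the 3 WT arrays and an adjusted p of 0.142. Atp2b1, a plasma membrane calcium pump, fell by 0.31 ± 0.09 in WT+MI. A second Atp2b1 probe had a difference of 0.29 the other way, which did not pass, and the mean of both was -0.007. Atp2b4 was well above background on 1 of 12 arrays and was not tested.

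**Figure D2:**
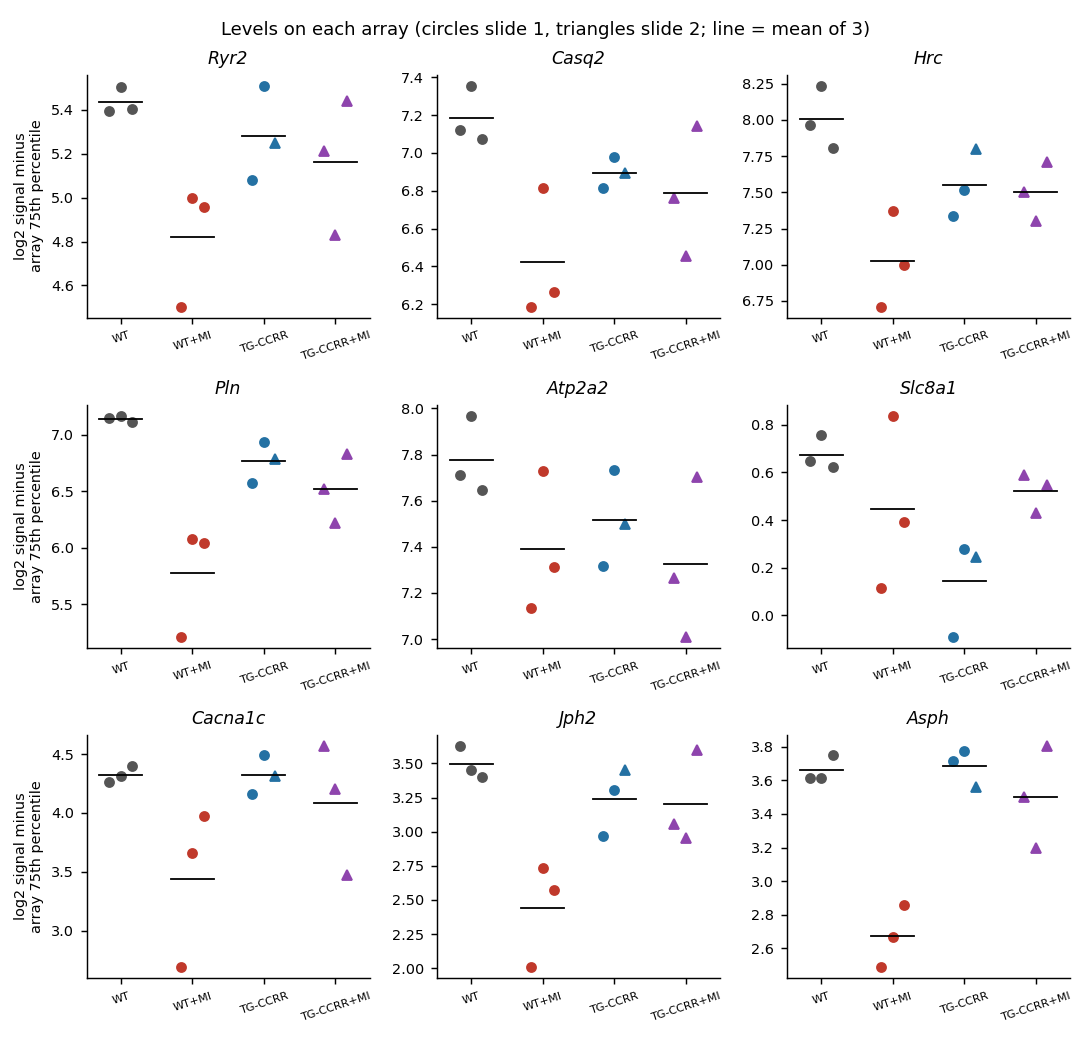
Level on each of the 12 arrays (vertical axis, log2 signal minus the array's 75th percentile) of 9 genes of release, buffering, reuptake, exchange and entry, by group; circles are arrays of slide 1, triangles of slide 2, and black lines are means of 3 arrays. Pln, Casq2, Hrc and Jph2 lie lower in WT+MI than in WT without overlap, while Atp2a2 and Slc8a1 overlap between these groups.

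Of the 6 voltage-gated channel subunits 3 (50%) fell and 1 (16.7%) rose in WT+MI, beside 29.3% and 18.6% of all genes. Differences of 5 of the 6 lay below 0, and the rise, of Cacna1d, rests on 1 probe described below. Cacna1c, the pore of the L-type channel that triggers each beat, was at 4.26, 4.31 and 4.40 in WT, 2.69, 3.66 and 3.97 in WT+MI, 4.16, 4.49 and 4.31 in TG-CCRR, and 4.57, 4.2 and 3.47 in TG-CCRR+MI. All WT+MI arrays were below WT, with WT+MI 1 far below the others of its group. The fall by 0.88 ± 0.33 passed narrowly (adjusted p = 0.0450), and it passed under 7 of 22 alternatives. Without WT+MI 1 it was -0.51 with an adjusted p of 0.164. The Cacna1c probe printed above was well above background on 1 of 3 WT+MI arrays and on all 3 WT arrays, and its measured difference was -1.27 ± 0.26.

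Cacna1g, the Cav3.1 T-type channel known from nodal and conduction cells, was at -0.05, -0.14 and -0.07 in WT and at -2.48, -1.37 and -2.03 in WT+MI. In TG-CCRR it was at 0.54, 0.45 and 0.64, and in TG-CCRR+MI at -0.34, -1.45 and -0.62. It fell 3.66-fold in WT+MI (difference -1.87 ± 0.30, adjusted p = 0.000825), and with normexp background correction the difference was -1.09. A second probe had a difference of -2.25, and the third was not well above background on any WT+MI array. Within each genotype, every infarcted array was below every uninfarcted one.

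Cacna1d, the Cav1.3 L-type channel typical of the sinoatrial node and the atria, was at -3.95, -3.04 and -3.08 in WT, -0.15, -1.49 and -1.73 in WT+MI, -2.03, -3.14 and -2.73 in TG-CCRR, and -3.03, -1.96 and -2.0 in TG-CCRR+MI. It rose 4.69-fold in WT+MI (difference 2.23 ± 0.47, adjusted p = 0.00333), and the 3 WT+MI arrays were the highest of the 12. In WT the probe was well above background on 2 of 3 arrays, and with normexp background correction the difference was 0.82, with an adjusted p of 0.0112. The value rests on 1 probe, at chr14:31163417-31163476, which is open in no reading frame and is assigned another transcript than the gene's other probes. The other 2 probes of the gene, at chr14:30853773-30853832 and chr14:30855259-30855318, were well above background on 3 and 0 of 12 arrays and were not tested. The array with the highest Cacna1d level, WT+MI 1, also had the highest summed level of atrial markers in its group, 677 against 307 and 235. Of its group it alone had high Myl7 and Sln, at 6.68 and 6.11, while the sums of WT+MI 2 and 3 were mainly Nppa. On TG-CCRR 1 and 3, with summed atrial levels of 1495 and 1235, Cacna1d was at -2.03 and -2.73. The part of the atrial markers in the Cacna1d levels was not tested. Without WT+MI 1 the Cacna1d difference was 1.74, with an adjusted p of 0.0112. Cacna2d1, an auxiliary subunit, fell by 0.45 ± 0.16 with an adjusted p of 0.0389, and without WT+MI 1 the difference was -0.28 and did not pass. Cacna1h, the Cav3.2 T-type channel, at -0.43 ± 0.29, and the auxiliary subunit Cacnb2, at -0.57 ± 0.31, did not pass.

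Among the store-operated and mitochondrial entry genes, Mcu, the pore of the mitochondrial uniporter, fell by 0.36 ± 0.11, with an adjusted p of 0.0191. Another Mcu probe rose by 0.42, so that the mean of all Mcu probes had the opposite sign, 0.077. Stim1, the store's calcium sensor, at -0.41 ± 0.32, and Orai1, the channel it opens, at 0.12 ± 0.15, did not pass. On TG-CCRR+MI 1 Stim1 was at 0.73, against 1.5 to 2.65 on the other arrays.

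Of the kinases and the calcineurin genes, Camk2a was at 2.35, 2.47 and 2.28 in WT, 0.35, 0.84 and 1.36 in WT+MI, 2.32, 2.40 and 2.63 in TG-CCRR, and 1.92, 1.43 and 1.80 in TG-CCRR+MI. It fell 2.86-fold in WT+MI (difference -1.52 ± 0.23, adjusted p = 0.000643), and its second tested probe was well above background on 3 of 3 WT and 1 of 3 WT+MI arrays. The infarcted groups lay below the uninfarcted ones without overlap in both genotypes. Camk2b, another isoform gene of the kinase, fell by 0.87 ± 0.21. Camk2d, the kinase's main cardiac isoform gene, had a difference of 0.35 ± 0.20 that did not pass, and its 5 tested probes ran from -0.59 to 1.49, the lowest and the highest of them called. Camk2g, at 0.03 ± 0.17, and the calcineurin catalytic subunits Ppp3ca, at -0.18 ± 0.10, and Ppp3cb, at -0.22 ± 0.14, did not pass. Rcan1, a regulator of calcineurin whose transcription calcineurin itself drives, was at 4.66, 4.84 and 4.75 in WT, 6.10, 6.66 and 6.40 in WT+MI, 4.12, 4.26 and 4.46 in TG-CCRR, and 6.08, 6.19 and 5.22 in TG-CCRR+MI. All 6 infarcted arrays were above all 6 uninfarcted ones. In WT+MI it rose 3.11-fold (difference 1.63 ± 0.24, adjusted p = 0.000567).

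**Figure D3:**
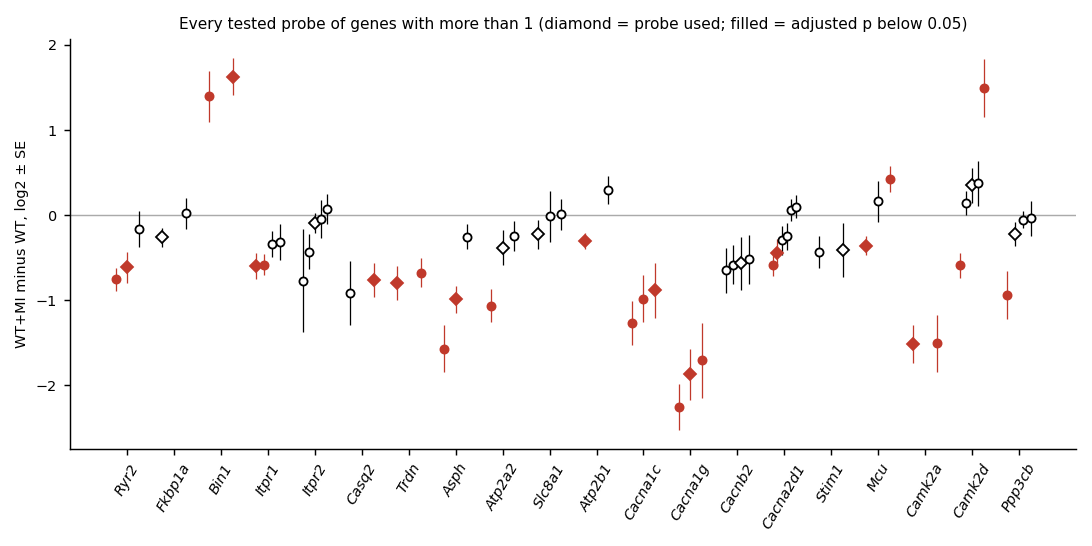
Difference in log2 level of WT+MI minus WT (vertical axis) with its standard error for each tested probe of the calcium genes that have more than 1 tested probe; diamonds are the probes that represent the gene, and filled red symbols passed an adjusted p of 0.05 over all 29870 probes. For 6 of the probes no array of WT, of WT+MI or of both was well above background, and their plotted differences are not exact. The probes of Cacna1c, Camk2a and Bin1 lie together, while those of Atp2a2, Mcu and Camk2d spread, from -0.59 to 1.49 for Camk2d.

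Marker genes of cell types were measured on the same arrays. Of the 12 cardiomyocyte markers 4 (33.3%, beside 29.3% of all genes) fell and the other 8 did not pass, with a median difference of -0.29, and their summed level ranged from 4878 to 6104 in WT and from 3638 to 4913 in WT+MI. Of 6 neutrophil markers 5 rose, with summed levels of 140 to 157 in WT and 306 to 503 in WT+MI. Of 7 fibroblast markers 3 fell, of 7 endothelial markers 3, of 7 smooth muscle and pericyte markers 2 and of 4 tested erythroid markers 3, the last with summed levels of 983 to 1646 in WT and 609 to 755 in WT+MI. The part of these shifts in the falls of the calcium genes was not tested, and fewer heart muscle cells in a sample and less RNA per cell cannot be told apart in whole tissue.

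Other calcium genes, on lists of the same pathways, are set here beside the 29.3% of all genes that fell and the 18.6% that rose in WT+MI. Of 16 other tested genes of the sarcoplasmic reticulum 8 (50%) fell and 2 (12.5%) rose, among them Ryr3 at -1.82 ± 0.31, Ryr1 at -1.60 ± 0.25, both ryanodine receptors, and Dhrs7c, a reticulum protein, at -1.55 ± 0.20. Of 14 other voltage-gated channel subunits and their inhibitors 5 (35.7%) fell and 1 (7.14%) rose, with Cacng6 at -1.42 ± 0.20, Cacna1s, the L-type pore of skeletal muscle, at -1.11 ± 0.28 and the auxiliary subunit Cacna2d2 at -0.99 ± 0.34. Of 11 mitochondrial calcium genes 7 (63.6%) fell and 2 (18.2%) rose. Mcub, the inhibitory relative of Mcu, rose by 1.82 ± 0.38, while the uniporter regulator Mcur1 at -0.71 ± 0.11 and Letm1 at -0.64 ± 0.16 fell.

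Of 15 other tested genes of membrane transport and store-operated entry 6 (40%) fell and 2 (13.3%) rose. The plasma membrane pump gene Atp2b2 was at least 1.74-fold lower, since it was not well above background on any WT+MI array, and Orai2 rose by 1.04 ± 0.19. Of 22 calmodulin, calcineurin and kinase genes 7 (31.8%) fell and 5 (22.7%) rose. Akap5, a kinase and calcineurin anchor, fell by 2.92 ± 0.43 and Ank2, ankyrin B, by 1.23 ± 0.19, while Camkk1, a kinase that activates other calmodulin-dependent kinases, rose by 1.55 ± 0.30.

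In uninfarcted hearts the transgenic samples differed from WT in 2 of the 35 genes, both higher, or 5.71% against 2.62% of all genes, of which 1.49% were higher and 1.13% lower. The median difference was -0.08 over the 35 and -0.06 over all genes. At an unadjusted p below 0.05 limma gave 3 higher and 2 lower. Casq1 was at -1.06, -1.39 and -1.17 in WT, -1.92, -1.62 and -2.56 in WT+MI, 0.95, 1.14 and 0.65 in TG-CCRR, and -0.57, -1.38 and -1.40 in TG-CCRR+MI. The 3 TG-CCRR arrays, of which 1 lay on the other slide, stood above all other 9. The difference was 2.12 ± 0.27, or 4.35-fold, with an adjusted p of 0.00574, and it passed under all 22 alternatives. Itpr2 was higher by 0.52 ± 0.11 in TG-CCRR (adjusted p = 0.0395), with a range of 3.02 to 3.16 against 2.44 to 2.64 in WT. It passed under 9 of 22 alternatives, and none of its other 4 tested probes passed, where 2.55% of all probes were called. The count of 2 fell to 1 without any 1 of the 6 WT and TG-CCRR arrays, without WT+MI 2 or without TG-CCRR+MI 1.

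Marker lists of other cell types also differed between TG-CCRR and WT, and their part in the Casq1 and Itpr2 differences was not tested. Of 4 tested atrial markers 2 were higher in TG-CCRR, of 7 smooth muscle and pericyte markers 3, of 7 fibroblast markers 1 and of 8 macrophage markers 1. Over the 4 tested atrial markers the median difference was 8.26. Myl4 was at 6.90 to 9.05 in TG-CCRR and 1.12 to 1.39 in WT. Myl7 was at 5.96 to 8.03 and -4.93 to -0.91, and Sln at 5.61 to 7.86 and -5.89 to -1.14. In WT Myl7 and Sln were well above background on 2 of 3 arrays, so that their differences are not exact. None of the 6 tested skeletal muscle markers was called by limma, and their summed level was 2.35 to 5.06 in TG-CCRR and 2.24 to 2.74 in WT. Of the other lists, 14 channel subunits and inhibitors held 2 higher genes, Cacna2d2 at 1.70 ± 0.34 and the channel inhibitor Gem at 1.42 ± 0.30, and 2 lower ones, among them the inhibitor Rrad at -0.97 ± 0.18.

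**Figure D4:**
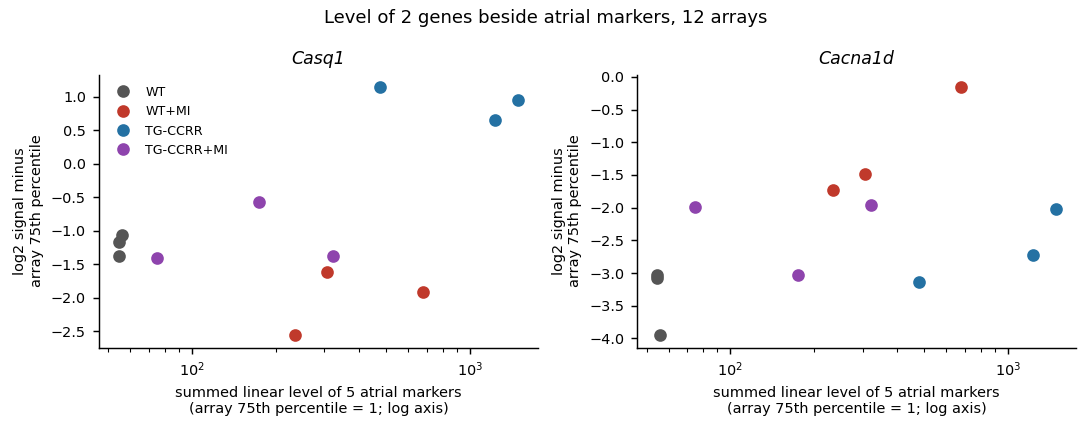
Level of Casq1 and of Cacna1d on each of the 12 arrays (vertical axis, log2 signal minus the array's 75th percentile) against the summed linear level of 5 atrial markers on the same array (horizontal axis, log scale), coloured by group. Casq1 lies between 0.65 and 1.14 on the TG-CCRR arrays and between -2.56 and -1.62 on the WT+MI arrays, with summed atrial levels of 477 to 1495 and of 235 to 677. On WT+MI 2 and 3 that sum is mainly Nppa. Cacna1d is highest on WT+MI 1.

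Between TG-CCRR+MI and TG-CCRR 5 of the 35 genes differed, or 14.3% against 8.85% of all genes. After infarction 2 were higher and 3 lower, while 5.21% of all genes rose and 3.64% fell. The count was 3 without TG-CCRR 1, without TG-CCRR 2 or without TG-CCRR+MI 2. In the same comparison 4 of 6 neutrophil markers rose, while 4 of 7 fibroblast, 3 of 7 smooth muscle and pericyte and 3 of 8 macrophage markers fell. All 4 tested atrial markers lay below 0, and the part of these lists in the Casq1 and Itpr2 falls was not tested. Sri rose by 0.70 ± 0.11 (adjusted p = 0.00511) and Rcan1 by 1.55 ± 0.24 (adjusted p = 0.00459). These values stand beside 0.71 and 1.63 in wild-type hearts. Cacna1g fell by 1.34 ± 0.30 (adjusted p = 0.0216), beside 1.87 in wild-type hearts. Casq1 fell 4.09-fold, by 2.03 ± 0.27 (adjusted p = 0.00256), to levels of -0.57 to -1.40 against -1.06 to -1.39 in WT, and Itpr2 by 0.47 ± 0.11. Since this comparison and that of TG-CCRR with WT share the TG-CCRR arrays, their opposite signs for Casq1 and Itpr2 are not independent. Of the 5 genes of the store's lumen, only Casq1 passed. Hrc at -0.05 ± 0.19, Casq2 at -0.11 ± 0.20, Trdn at -0.15 ± 0.20 and Asph at -0.18 ± 0.16 did not, nor did Pln at -0.24 ± 0.23, Ryr2 at -0.12 ± 0.18 and Jph2 at -0.04 ± 0.22. Camk2a had a difference of -0.73 ± 0.23 with an adjusted p of 0.0715.

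The comparison of TG-CCRR+MI with TG-CCRR spans both slides, and only TG-CCRR 3 shares a slide with TG-CCRR+MI. With slide as a block limma called 0 of the 35 genes, and 7 had an unadjusted p below 0.05. Only TG-CCRR lies on both slides, so that this block is set by TG-CCRR 3 against TG-CCRR 1 and 2 in every comparison. Its counts of calls therefore say little about the part of the slide. On slide 2, where TG-CCRR 3 is the only uninfarcted array, the differences from it were -1.77 for Casq1, 1.37 for Rcan1, 0.67 for Sri, -1.44 for Cacna1g and -0.41 for Itpr2. They rest on 1 array in that arm and are given as values with no test, and the part of the slide cannot be read from them.

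**Figure D5:**
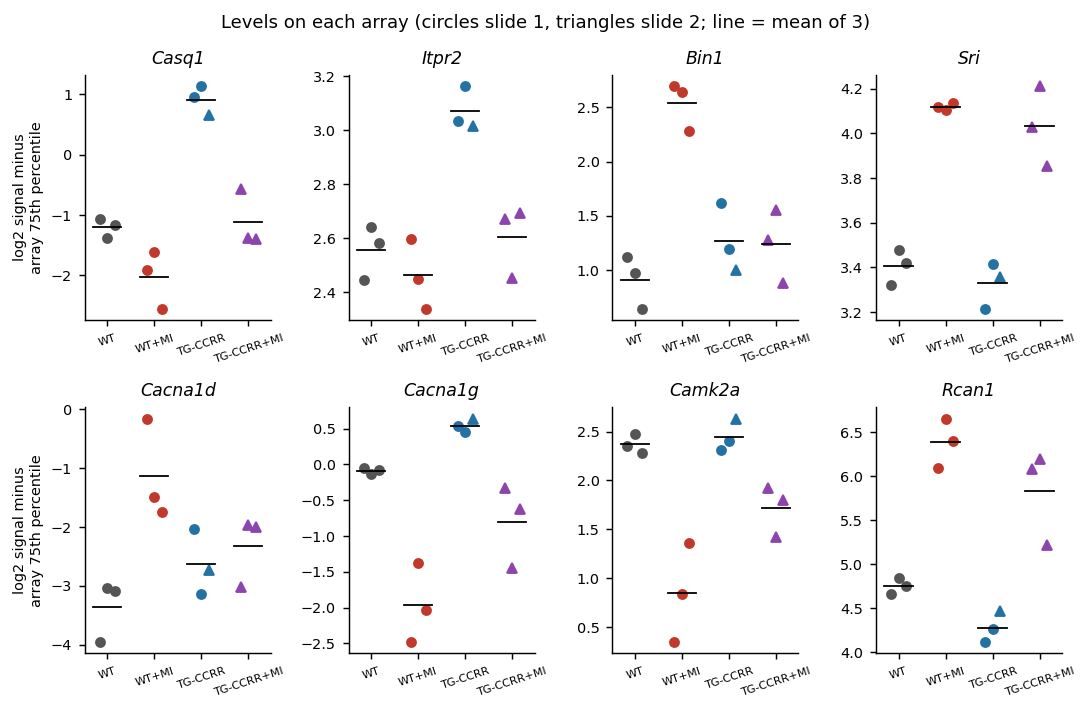
Level on each of the 12 arrays (vertical axis, log2 signal minus the array's 75th percentile) of 8 calcium genes called in several comparisons or with large differences, by group; circles are arrays of slide 1, triangles of slide 2, and black lines are means of 3 arrays. Casq1 and Itpr2 are highest in TG-CCRR, Bin1 and Cacna1d in WT+MI, and Rcan1 and Sri are higher in both infarcted groups.

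Between the infarcted groups, 6 of the 35 genes differed, 5 higher and 1 lower in TG-CCRR+MI, or 17.1% against 12.2% of all genes, of which 7.79% were higher and 4.38% lower. Asph was higher by 0.83 ± 0.16 (adjusted p = 0.0261), at 3.20 to 3.80 against 2.49 to 2.86 in WT+MI. Cacna1g was higher by 1.16 ± 0.30 (0.55 with normexp background correction), Camk2a by 0.86 ± 0.23, Jph2 by 0.76 ± 0.22 and S100a1 by 0.50 ± 0.14, with adjusted p-values from 0.0377 to 0.0498. Bin1 was lower by 1.30 ± 0.22 (adjusted p = 0.0239). Pln, at 0.75 ± 0.23 with an adjusted p of 0.0570, and Casq1, at 0.91 ± 0.27 with 0.0533, did not pass, although neither overlapped between the groups. Since this comparison and that of WT+MI with WT share the WT+MI arrays, their opposite signs for these genes are not independent. With slide as a block the differences were 1.01 for Asph, -0.90 for Bin1, 0.59 for Camk2a, 0.44 for Jph2 and 0.27 for S100a1. Limma called 0 of the 35 in that fit, where 3 had an unadjusted p below 0.05. It also called 0 without WT+MI 1, without TG-CCRR+MI 1 or without TG-CCRR+MI 3, where 9, 10 and 12 had an unadjusted p below 0.05. It called 2 without any 1 WT array, without TG-CCRR 2 or without TG-CCRR 3, and 3 without WT+MI 2. Of 6 neutrophil markers 4 were lower in TG-CCRR+MI, with summed levels of 147 to 163 against 306 to 503, and their part in these differences was not tested. The sum in TG-CCRR+MI and in the uninfarcted groups was mainly Csf3r, at 6.80 to 7.06 in TG-CCRR+MI and 6.98 to 7.34 in WT+MI. S100a8 was at 1.59 to 2.97 in TG-CCRR+MI, 4.63 to 6.06 in WT+MI and -2.21 to -1.58 in TG-CCRR.

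Of the other sarcoplasmic reticulum genes 6 of 16 were higher in TG-CCRR+MI than in WT+MI. These include Ryr1 by 1.16 ± 0.25, Ryr3 by 1.14 ± 0.31 and Dhrs7c by 0.97 ± 0.20.

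Other calcium genes called in transgenic hearts after infarction include Rrad, which rose by 1.15 ± 0.18, and Cacna2d2, which fell by 2.14 ± 0.34, among 1 higher and 2 lower of the 14 channel subunits and inhibitors. Of the 16 reticulum genes Tmem38b, a reticulum cation channel, rose by 1.11 ± 0.23, while Ryr3 fell by 1.25 ± 0.31 and Dhrs7c by 0.82 ± 0.20. Of the 15 membrane transport genes Atp2b2 was at least 3.79-fold lower, of the 22 calmodulin, calcineurin and kinase genes Nfatc2, a transcription factor that calcineurin activates, fell by 0.90 ± 0.19, and none of the 11 mitochondrial genes was called by limma.

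The difference between the genotypes in their response to infarction was tested as an interaction, which passed for 2 of the 35 genes, 1 in each direction, or 5.71% against 8.9% of all genes, of which 5.85% were positive and 3.05% negative. Asph fell by 0.99 in wild-type and by 0.18 in transgenic hearts, an interaction of 0.81 ± 0.22 (adjusted p = 0.0485). Bin1 rose by 1.63 in wild-type hearts and had a difference of -0.03 in transgenic ones, an interaction of -1.66 ± 0.31 (adjusted p = 0.0261). In the fit of single probes the interaction of Asph passed for none of its 3 tested probes, with adjusted p-values of 0.0527, 0.108 and 0.244, and that of Bin1 passed for the representing probe and not for the other, with 0.0584. Marker genes also passed the interaction, 4 of 7 smooth muscle and pericyte markers, 2 in each direction, and 1 each of 4 atrial, 6 neutrophil and 8 macrophage markers, all negative, with all 8 macrophage markers below 0. Of 12 cardiomyocyte markers 1 passed and of 7 endothelial markers 1, both positive, and all 12 cardiomyocyte markers lay above 0. Their part in the Bin1 and Asph interactions was not tested. The median interaction was 0.32 over the 35 genes, 0.38 over the 12 cardiomyocyte markers and 0.14 over all genes. Pln at 1.12 ± 0.32 (adjusted p = 0.0549), Hrc at 0.93 ± 0.28 (0.0586), S100a1 at 0.65 ± 0.19 (0.0591) and Jph2 at 1.01 ± 0.31 (0.0659) did not pass. The count of 2 was 0 without WT 2, WT 3, TG-CCRR 1, TG-CCRR 2 or TG-CCRR+MI 1, 1 without WT 1, WT+MI 1, WT+MI 2, TG-CCRR 3 or TG-CCRR+MI 3, 5 without WT+MI 3 and 6 without TG-CCRR+MI 2. The interaction of Rcan1 was -0.08 ± 0.34 and that of Sri -0.01 ± 0.16. With slide as a block limma called 0 of the 35, and 3 had an unadjusted p below 0.05.

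On the lists of other calcium genes, the interaction passed for 3 of 16 reticulum genes, all positive, with Ryr1 at 1.61 ± 0.36, Tmem38a at 1.15 ± 0.30 and the SERCA1 pump gene Atp2a1 at 0.95 ± 0.25. It passed for Cacng6 at 1.66 ± 0.29 among 14 channel genes. Of 22 calmodulin, calcineurin and kinase genes Camk1d at -2.27 ± 0.55, Camkk1 at -1.90 ± 0.43 and Akap6 at 0.62 ± 0.17 passed.

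In all, 22 of the 35 tested genes were called in at least 1 of the 5 comparisons, beside 51.3% of all genes, and 13 in none. Rcan1, Sri, Cacna1g and Casq1 were the 4 called in both infarction comparisons, where 6.64% of all genes were, each in the same direction in wild-type and transgenic hearts. Mean Casq1 levels were -1.21 in WT, -2.03 in WT+MI, 0.91 in TG-CCRR and -1.12 in TG-CCRR+MI. Its transgenic fall is thus not independent of its higher level in TG-CCRR than in WT. Its wild-type call held under 16 of 22 alternatives.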

How the data were processed

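Total RNA of 12 mouse heart samples was labelled with Cy3 and hybridised to single-colour Agilent arrays. Per the labels' protocols, RNAiso Plus extraction was followed by a Bioanalyzer check, column purification with DNase and labelling by Agilent's Low Input Quick Amp kit. The deposited spot intensity is the background-subtracted linear signal of Feature Extraction 12.0.3.1, per the file headers, with mm9 probe positions. The authors also deposited log2 values of these arrays as 1 table. Its column medians lie between 4.21 and 4.22 and its columns rank probes as the signals do, and how it was normalized is not stated. Limma, with no version, is named in the submitters' processing notes.

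Here the intensity was taken to log2, outlier spots were left out, spots of a probe were averaged and the 75th percentile of an array's non-control probes was taken off its values. Of the probes, 49 had no usable spot on some array and were left out. RefSeq names other genes for 0 of the 99 member probes. Groups follow the labels, where WT+MI 2 and 3 have titles with another prefix and their characteristics decided. All arrays entered a group-means model in limma 3.58.1 (R 4.3.3), tested on simulated data, with 5 contrasts. The number of arrays limits the precision. Alternatives changed the background correction (normexp with offset 50), normalization, filter, probe choice, slide, replicate block and samples. A fit of each probe on its own was added after seeing the data.

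The members, marker lists and other gene lists were chosen with earlier results of these data known. Each member is given, with values of every array for Ryr2, Atp2a2, Pln, Casq2, Slc8a1, Cacna1c and members called with a difference of at least 1, and at most 3 called genes per further list and comparison. Some genes and probe sequences are not reported here.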

Additional observations from a re-analysis of the deposited data

Results flagged for a closer look

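The response to infarction differed between wild-type and transgenic hearts, by the test of the difference itself, for 2 calcium genes. For Asph the interaction was 0.81, with a fall in WT+MI and no called difference in TG-CCRR+MI. It passed under 3 of 20 alternatives and kept its direction under all 20, between 0.65 and 0.96. For Bin1 the interaction was -1.66, with a rise in WT+MI and no called difference in TG-CCRR+MI. It passed under 13 of 20 alternatives, between -1.82 and -1.39. The 3 TG-CCRR+MI arrays lie on the slide that holds no wild-type array, and with slide as a block the limma adjusted p was 0.222 for Asph and 0.197 for Bin1. Both interactions stayed within the ranges above in that fit, Bin1 at -1.39. The slide block rests on TG-CCRR 3, the only TG-CCRR array on that slide.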

How the results depend on the processing

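Over 36 called differences in the 5 comparisons and 781 alternative values, 604 kept direction and call, 175 kept direction alone and 2 reversed. With the mean of all probes of a gene, Mcu in WT+MI against WT turned to 0.077 and Itpr2 in TG-CCRR+MI against TG-CCRR to 0.064. In WT+MI against WT, 14 of the 21 genes were called under every alternative, and leaving out 1 array gave 15 to 21 calls, 15 without WT 2 or WT+MI 1. The other 4 comparisons were less stable. TG-CCRR against WT had 2 calls and gave 1 with no filter on dim probes, with the mean of all probes, with slide as a block, on slide 1 alone and with the replicate block, and 1 to 2 without 1 array. TG-CCRR+MI against TG-CCRR had 5 calls and gave 3 with no filter, 0 with slide as a block, 2 with only the groups compared, and 3 to 6 without 1 array. Slide 2 alone held 1 TG-CCRR array, and the slide block gives the same differences for this comparison. Each fit with slide as a block rests on that 1 array for the slide, since only TG-CCRR lies on both slides. TG-CCRR+MI against WT+MI had 6 calls and gave 0 with no filter, with slide as a block and with only the groups compared, with 11, 3 and 9 genes at an unadjusted limma p below 0.05, and 0 to 8 without 1 array. The interaction had 2 calls and gave 1 with quantile normalization, with the authors' value table, with the mean of all probes and with the replicate block, 0 with no filter and with slide as a block, 5 with probes above background on all 12 arrays, and 0 to 6 without 1 array. Fewer genes were called with no filter, where dim genes also enter the fit and the adjustment. The cause of this and of the other shifts was not tested. With the replicate number as a block (replicate block) the 5 comparisons gave 20, 1, 4, 5 and 1 calls. No pairing by replicate number was seen. The 18 same-number pairs correlated between -0.26 and 0.12, beside -0.18 to 0.25 for different-number pairs. Of the 12 arrays 2 correlated best with their own number. With 3 arrays per group this check cannot exclude pairing. The interaction could not be fitted within a slide. Leaving out the dim probes moved the median of all genes in WT+MI against WT from 0.03 to -0.14. Signal over background limits Cacna1d and Atp2b4, well above background on 10 and 1 of 12 arrays.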
